A study of Rattus norvegicus with 9 samples.

Results

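Expression of 10 transcripts that encode abundant plasma proteins of the liver was followed across 9 rat liver libraries: Alb, Ttr, Ahsg, Hp, Hpx, Cp, Crp, Orm1, A2m and Itih4. They were taken by gene symbol from the 40154 gene rows that every library holds, and all 10 had a row. Whole livers of wild type Sprague-Dawley rats aged 5 months were sequenced, with 3 libraries in each of 3 groups. The HepLPC livers came from rats with cirrhosis that had been injected with rat HepLPCs, hepatocyte-derived progenitor-like cells. The PBS livers came from rats with cirrhosis that had been injected with saline, and the normal livers from rats given no carbon tetrachloride (CCl4, a liver toxin) and no cells. The injected cells are of the host's species, so their transcripts cannot be told apart from those of the host liver. Injury and injection both separate the PBS from the normal livers, and these cannot be told apart either. The labels number the libraries 1 to 3 within a group without stating whether each came from its own animal. The p-values therefore reflect the spread among these libraries, some of which may be technical.

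Hepatocytes make most proteins of the blood plasma. During an acute phase response, interleukin 6 signals through its receptor and the shared subunit Il6st to the transcription factor Stat3, and interleukin 1 signals through NF-kappaB. Together with C/EBP factors these raise the transcription of positive acute phase genes, while negative acute phase genes such as Alb, Ttr and Ahsg are turned down. In rats, A2m is the classic strongly induced acute phase protein, whereas Crp circulates at a high level in healthy animals and changes little.

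The stretches upstream of the members' start sites show which letters of these regulatory routes stand near each gene. The RefSeq promoter table (GRCr8) held an entry for 8 of the 10 members and none for Hp or A2m, which are named only. The 250 bases before each start site were searched on both strands for 5 motifs: TTCNNNGAA (STAT factors), CTGGGAA (interleukin 6 response), TTGCNNAA (C/EBP), GGANTTTCC (NF-kappaB) and TATAAA (the TATA box). The 4 windows printed are those of the most abundant member, of Ttr, the one member above the filter on low values whose PBS livers overlapped neither other group, of a member of the positive class that varied strongly between libraries, and of the one member with a STAT match. Capitals mark the motif matches. The windows are chr14:17906980-17907229 on the minus strand for Alb, chr18:12218508-12218757 on the plus strand for Ttr, chr5:81788259-81788508 on the plus strand for Orm1 and chr16:6086735-6086984 on the plus strand for Itih4.
Alb: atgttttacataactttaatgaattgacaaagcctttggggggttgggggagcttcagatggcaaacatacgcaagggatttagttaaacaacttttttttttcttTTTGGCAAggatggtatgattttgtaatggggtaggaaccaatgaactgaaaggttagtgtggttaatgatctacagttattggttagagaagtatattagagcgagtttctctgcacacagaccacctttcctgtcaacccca
Ttr: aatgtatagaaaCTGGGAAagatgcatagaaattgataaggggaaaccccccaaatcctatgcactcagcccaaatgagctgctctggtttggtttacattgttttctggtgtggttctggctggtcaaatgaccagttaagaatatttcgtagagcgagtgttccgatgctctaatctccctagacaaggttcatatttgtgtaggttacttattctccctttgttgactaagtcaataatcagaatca
Orm1: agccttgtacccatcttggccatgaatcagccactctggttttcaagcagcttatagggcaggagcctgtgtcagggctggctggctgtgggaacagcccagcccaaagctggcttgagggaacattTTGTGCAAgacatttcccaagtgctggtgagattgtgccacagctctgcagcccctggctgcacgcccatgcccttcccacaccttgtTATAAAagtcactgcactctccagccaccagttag
Itih4: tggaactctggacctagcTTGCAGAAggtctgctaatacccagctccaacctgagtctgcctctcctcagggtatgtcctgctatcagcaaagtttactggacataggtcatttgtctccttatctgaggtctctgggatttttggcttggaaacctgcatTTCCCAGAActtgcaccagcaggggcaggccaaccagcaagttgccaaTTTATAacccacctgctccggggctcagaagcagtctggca
The Alb window holds 1 match, for C/EBP, at base -144, where -1 is the base just before the start site. The Ttr window holds 1 match, CTGGGAA at base -238. The Orm1 window holds a C/EBP match at base -123 and TATAAA at base -35. In the Itih4 window the STAT match at base -89 overlaps the interleukin 6 match, and a C/EBP match starts at base -232. TTTATA, the reverse complement of TATAAA, starts at base -41 of that window. C/EBP letters occurred in 6 of the 8 members (Alb, Ahsg, Hpx, Cp, Orm1 and Itih4) and in 9.22% of the 33469 promoters in the table. The interleukin 6 letters occurred in 3 of 8 (Ttr, Ahsg and Itih4) and in 9.56% of all promoters, and the STAT letters in 1 of 8 and 7.67%. The TATAAA letters, on either strand, occurred in 3 of 8 (Cp, Orm1 and Itih4) and 12.9%, in Itih4 only as the reverse complement. The NF-kappaB letters occurred in 0 of 8 and 1.08%, and the Crp window held none of the 5 motifs. A match describes letters in this window and was not tested as a binding site.

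Levels are in RPKM, read counts scaled by gene model length and library total, as deposited. Depth was between 17.4 and 21.8 megareads recovered per library. The libraries of PBS replicate 1 and HepLPC replicate 2, written PBS 1 and HepLPC 2, stood apart from the other 7. In both, genes with longer models deviated downward from their group mean, with a Spearman correlation between deviation and length of -0.564 in PBS 1 and -0.528 in HepLPC 2, against -0.157 to 0.423 in the others. Of the 9 members above the filter on low values, 7 deviated in the same direction in both libraries, all but Hpx and Itih4. Over all tested genes the deviations of these 2 libraries had a correlation of 0.608. The share of all tested genes with the same direction was not counted, so the members' count is not read as particular to them. Hepatocyte markers were present in all libraries. In PBS against normal 13 of 15 were below 0, with a median log2 fold change of -0.20 (all tested genes 0.18), and in HepLPC against PBS 12 of 15 were above 0, with a median of 0.13 (all -0.14). With all libraries 0 of 15 passed the test in any comparison. Without PBS 1 and HepLPC 2, 2 of these markers fell in PBS against normal, where 2.45% of all tested genes did. The part of hepatocytes in the values of the members was not tested. The summed level of their markers was 8692 to 9641 RPKM in HepLPC livers, 7842 to 10079 RPKM in PBS livers and 9578 to 11107 RPKM in normal livers.

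The members made up a large part of every transcriptome. They took 14.6 to 16.8% of the summed RPKM in HepLPC livers, 14.0 to 14.6% in PBS livers and 14.6 to 17.6% in normal livers. Alb ranked 1st by mean RPKM among all gene rows, Ttr 8th, Hp 11th, Crp 13th, Ahsg 15th and Hpx 21st. Itih4 ranked 64th, Orm1 97th and Cp 116th, and A2m stood far below them at rank 12693.

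Tests used limma on log2(RPKM + 1) with all 9 libraries in 1 model, for 11124 genes that reached 1 RPKM in 3 libraries or more, and a gene was called where its adjusted p (Benjamini-Hochberg) was under 0.05. Of the 10 members 9 were tested and A2m fell below the filter. For HepLPC against PBS, 0 of 9 members were called, where 0.135% of all tested genes were called higher and 2.93% lower. For PBS against normal, 0 of 9 were called, where 10.4% of all tested genes were called higher and 0.944% lower. These were 1157 and 105 genes, and 566 and 216 after rescaling by the median of ratios. For HepLPC against normal, 0 of 9 were called, where 0.0449% were called higher and 0.036% lower. At an unadjusted limma p under 0.05 the members' counts were 1, 0 and 0 of 9 in the same order, beside 16.1%, 27.3% and 9.31% of all tested genes. With limma voom on recovered reads, 0 members were called in each comparison. Values of the 2 groups did not overlap for 1 of 9 members in HepLPC against PBS (18.4% of all tested genes), for 2 in PBS against normal (37.7%) and for 0 in HepLPC against normal (15.8%). The median log2 fold change of the 9 members was 0.09 in HepLPC against PBS (all tested genes -0.14), 0.01 in PBS against normal (all 0.18) and 0.09 in HepLPC against normal (all 0.05). The first and second comparisons share the PBS libraries, so a high or low PBS library moves both in opposite directions. In whole liver, fewer cells of a type and less RNA per cell cannot be told apart.

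**Figure D1:**
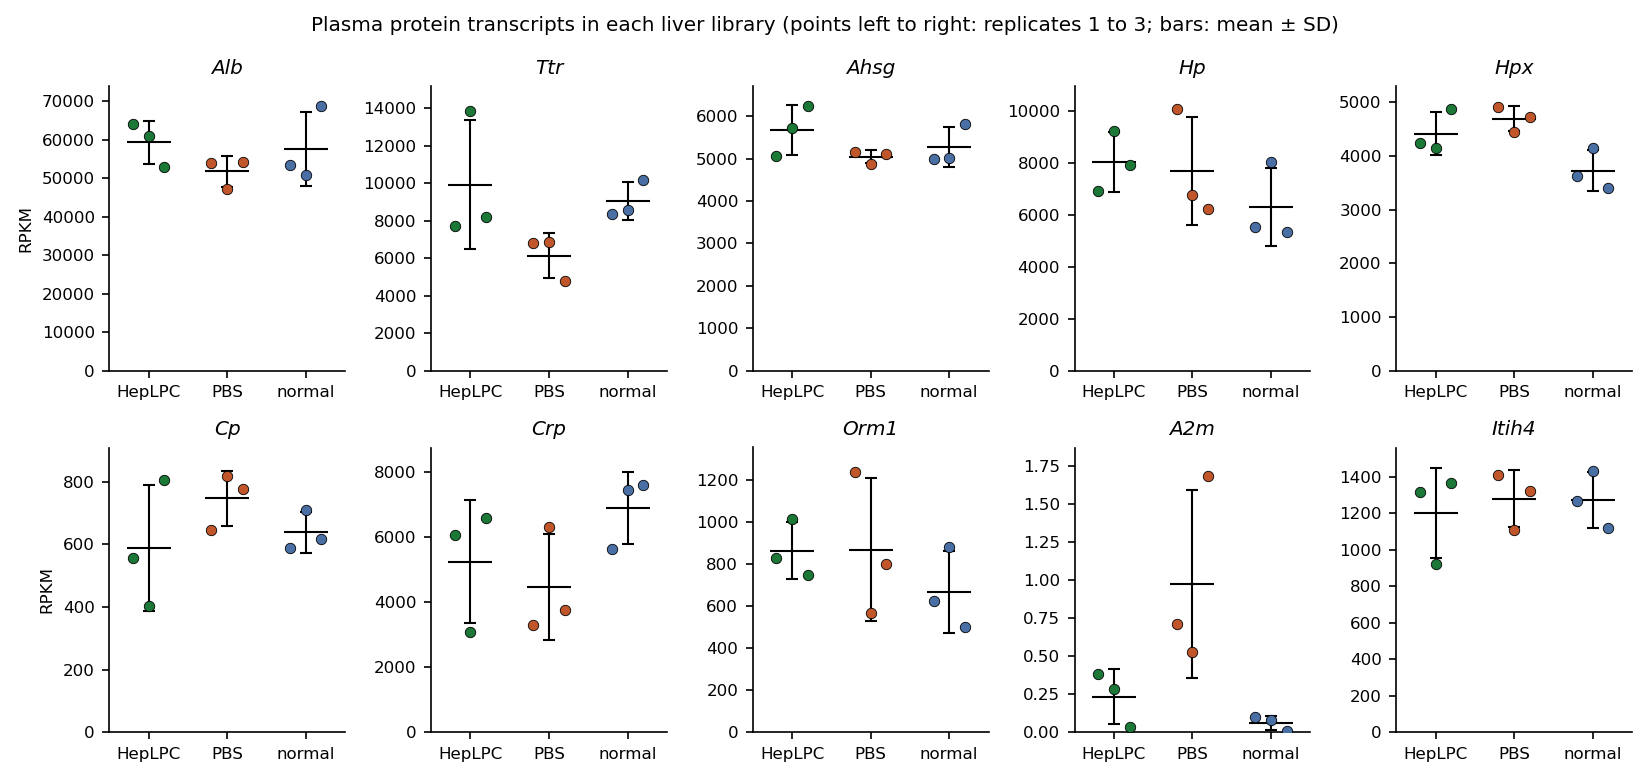
RPKM (vertical axis, linear from 0) of each of the 10 transcripts in HepLPC, PBS and normal livers, where points are libraries in replicate order and bars are mean ± SD (n = 3). Ttr is at 6850 RPKM or less in all PBS libraries and at 7741 RPKM or more in all others, and A2m stays under 2 RPKM in every library. The mean of Hpx is lowest in normal livers, although HepLPC 2 lies just under normal 2.

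Alb encodes albumin, the main carrier protein of plasma and a negative acute phase protein. It stood at 64031, 60981 and 53036 RPKM in HepLPC livers, 53885, 47139 and 54379 RPKM in PBS livers and 53577, 50794 and 68724 RPKM in normal livers. The highest library was normal 3 and the lowest PBS 2, and the ranges of all 3 groups overlapped. The log2 fold change was 0.19 (SE 0.23, limma adjusted p = 0.703) for HepLPC against PBS and -0.15 (SE 0.23, adjusted p = 0.728) for PBS against normal. The 95% interval for PBS against normal ran from -0.67 to 0.38. Alb alone was 8.97 to 11.1% of the summed RPKM in HepLPC livers, 8.36 to 9.68% in PBS livers and 8.56 to 11.7% in normal livers.

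Ttr encodes transthyretin, the carrier of thyroxine and of retinol-binding protein, and was the one tested member whose PBS livers overlapped neither other group. It stood at 7741, 13872 and 8184 RPKM in HepLPC livers, 6817, 6850 and 4775 RPKM in PBS livers and 8356, 8589 and 10196 RPKM in normal livers. All PBS libraries were below all HepLPC and all normal libraries, while the HepLPC and normal ranges overlapped. Of all tested genes, 18.4% did not overlap in HepLPC against PBS and 37.7% in PBS against normal. The share whose PBS livers overlapped neither other group was not counted, so Ttr is not read as unusual by this trait. The log2 fold change was 0.66 for HepLPC against PBS (SE 0.27, 95% interval 0.06 to 1.26, limma adjusted p = 0.258) and -0.57 for PBS against normal (SE 0.27, 95% interval -1.17 to 0.03, adjusted p = 0.201). HepLPC against normal gave 0.09 (SE 0.27, adjusted p = 0.946). The highest value belongs to HepLPC 2, a library that stood apart, and without it HepLPC against PBS was 0.39 (limma adjusted p = 0.44). Without both such libraries, PBS against normal was -0.66 and passed the test (limma adjusted p = 0.0435, where 2.45% of all genes were called lower), and with library weights it was -0.70 (adjusted p = 0.0206, where 3.69% were). Rbp4, the retinol-binding protein that transthyretin carries, averaged 3497 ± 1122 RPKM in HepLPC, 2719 ± 164 RPKM in PBS and 3413 ± 31.5 RPKM in normal livers (SD, n = 3 each). For PBS against normal it had a log2 fold change of -0.33 (SE 0.22, limma adjusted p = 0.364).

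Ahsg encodes fetuin-A, an inhibitor of mineral deposition. Its levels were 5067, 5711 and 6234 RPKM in HepLPC livers, 5159, 4878 and 5100 RPKM in PBS livers and 4993, 5012 and 5815 RPKM in normal livers. It was the steadiest member in PBS livers, with a coefficient of variation of 2.93%, and all groups overlapped. The log2 fold change was 0.16 (SE 0.16, limma adjusted p = 0.648) for HepLPC against PBS and -0.06 (SE 0.16, adjusted p = 0.847) for PBS against normal.

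Next come 3 members that bind haem or metal. Hp encodes haptoglobin, which binds free haemoglobin, and had 6924, 9245 and 7939 RPKM in HepLPC livers, 10076, 6777 and 6224 RPKM in PBS livers and 5549, 8039 and 5340 RPKM in normal livers. The highest value was in PBS 1, and the groups overlapped. The log2 fold change was 0.09 (SE 0.25, limma adjusted p = 0.877) for HepLPC against PBS and 0.28 (SE 0.25, adjusted p = 0.523) for PBS against normal. Without the 2 libraries that stood apart, PBS against normal was 0.07 for Hp (limma adjusted p = 0.82).

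Hpx encodes hemopexin, which binds free haem. It stood at 4234, 4143 and 4880 RPKM in HepLPC livers, 4911, 4449 and 4718 RPKM in PBS livers and 3625, 4147 and 3411 RPKM in normal livers. All PBS libraries lay above all normal libraries, whereas HepLPC 2 lay just under normal 2. PBS against normal was 0.34 (SE 0.16, 95% interval -0.03 to 0.70, limma adjusted p = 0.215), and HepLPC against normal was 0.25 (SE 0.16, adjusted p = 0.722). After rescaling by the median of ratios, the PBS against normal value of Hpx was 0.09 (limma adjusted p = 0.848).

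Cp encodes ceruloplasmin, a copper-binding ferroxidase. It had 558, 405 and 804 RPKM in HepLPC livers, 647, 817 and 776 RPKM in PBS livers and 587, 710 and 617 RPKM in normal livers. HepLPC livers held both the lowest library and the second highest, so their range covered most of the others. The log2 fold change was -0.39 (SE 0.23, limma adjusted p = 0.458) for HepLPC against PBS and 0.22 (SE 0.23, adjusted p = 0.579) for PBS against normal.

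Crp encodes C-reactive protein, a pentraxin that binds microbial and damaged cell surfaces. Its levels were 6062, 3074 and 6583 RPKM in HepLPC livers, 3307, 6307 and 3765 RPKM in PBS livers and 5627, 7444 and 7598 RPKM in normal livers. The lowest libraries were HepLPC 2 and PBS 1, the pair that stood apart, and the groups overlapped. PBS against normal was -0.67 (SE 0.34, 95% interval -1.44 to 0.09, limma adjusted p = 0.238), and -0.49 (adjusted p = 0.165) without those libraries. HepLPC against PBS was 0.21 (SE 0.34, limma adjusted p = 0.77).

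Orm1 encodes orosomucoid, or alpha-1-acid glycoprotein, a drug-binding lipocalin. It had 828, 1015 and 748 RPKM in HepLPC livers, 1238, 566 and 801 RPKM in PBS livers and 624, 880 and 499 RPKM in normal livers. PBS livers held both the highest and the second lowest library. PBS against normal was 0.34 (SE 0.30, limma adjusted p = 0.503) and HepLPC against PBS 0.05 (SE 0.30, adjusted p = 0.939). Without the 2 libraries that stood apart, PBS against normal was 0.05 for Orm1 (limma adjusted p = 0.884).

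Crp and Orm1 have gene models of 693 and 769 bases. They deviated from their group means in opposite directions in 6 of 9 libraries and in the same direction in 3, PBS 3, normal 1 and normal 2. The log2 ratio of Orm1 to Crp was -1.60 in HepLPC 2 and -1.42 in PBS 1, against -3.93 to -2.23 in the other 7 libraries. The log2 ratio of Hp to Crp was 1.59 in HepLPC 2 and 1.61 in PBS 1, against -0.51 to 0.73 in the others. Ttr to Crp gave 2.17 in HepLPC 2 and 1.04 in PBS 1, against 0.12 to 0.57. The 2 libraries with high ratios are of different groups, and the part of their length trend in these ratios was not tested. Over the 9 libraries, Hp and Orm1 had a Pearson r of 0.872 and Crp and Orm1 one of -0.701, given as a description since points share library and depth.

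**Figure D2:**
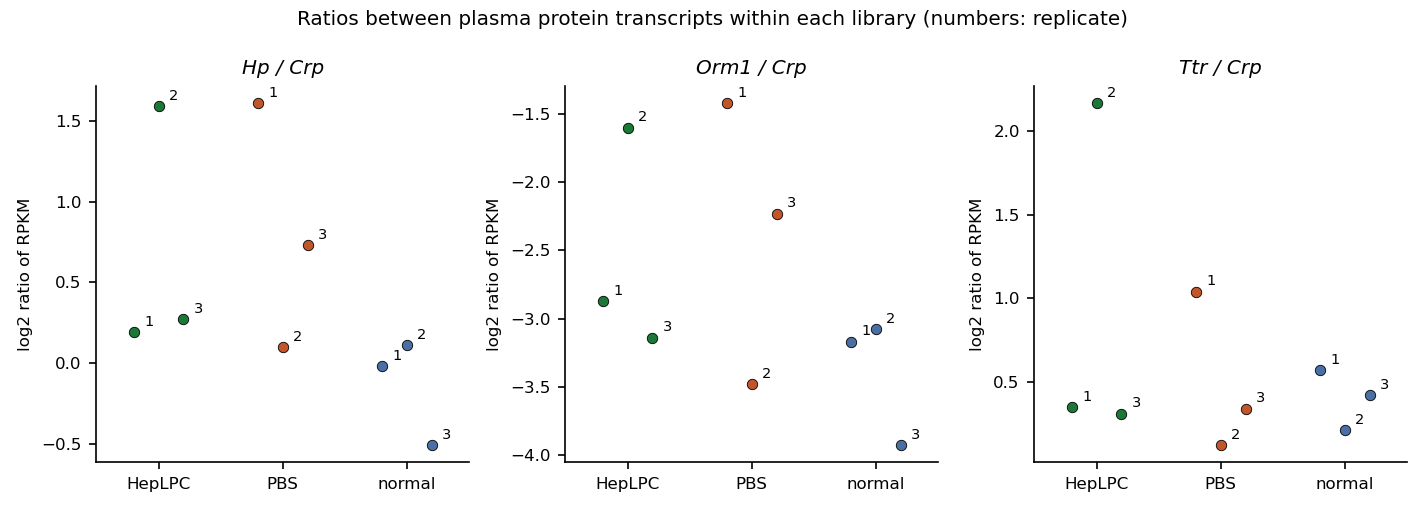
Log2 ratio of the RPKM of Hp, Orm1 and Ttr to that of Crp (vertical axes) within each HepLPC, PBS and normal library, with the replicate number beside each point. HepLPC 2 and PBS 1 lie above the other 7 libraries in all 3 panels, at 1.59 and 1.61 for Hp to Crp.

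Itih4 encodes a heavy chain of the inter-alpha-trypsin inhibitor family. It stood at 1317, 920 and 1366 RPKM in HepLPC livers, 1410, 1106 and 1320 RPKM in PBS livers and 1266, 1431 and 1120 RPKM in normal livers. The group ranges overlapped almost fully, with the lowest value in HepLPC 2. PBS against normal was 0.01 (SE 0.19, 95% interval -0.43 to 0.44, limma adjusted p = 0.986), and its sign turned under 6 of 20 alternatives.

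A2m encodes alpha-2-macroglobulin, a broad protease inhibitor. It was almost silent: 0.385, 0.282 and 0.0377 RPKM in HepLPC livers, 0.711, 0.53 and 1.68 RPKM in PBS livers and 0.0987, 0.0802 and 0.0102 RPKM in normal livers. Behind these values were 34, 25 and 3 reads in HepLPC, 58, 50 and 152 reads in PBS and 9, 8 and 1 reads in normal libraries. The exact Poisson 95% interval of the highest, PBS 3, was 129 to 178 reads, and that of normal 3 was 0.0253 to 5.57 reads, which covers counting error only. All PBS libraries were above all HepLPC and all normal libraries, and the mean RPKM was 0.974 in PBS and 0.063 in normal livers, a ratio of 15.5. Without PBS 3 the PBS mean was 0.621 RPKM and this ratio 9.85. The mean in HepLPC livers, 0.235 RPKM, was 0.241 of that in PBS livers, and 0.379 of it without PBS 3. Fitted without the filter, PBS against normal was 0.85 for A2m on log2(RPKM + 1) (SE 0.20, limma adjusted p = 0.0436), where 6.63% of 25034 genes were called higher, and this scale understates the change of so low a gene. That call was lost in 14 of 18 alternatives, among them leaving out PBS 3 (0.61, adjusted p = 0.0544). HepLPC against PBS was -0.64 (SE 0.20, limma adjusted p = 0.178). The sources used here do not give how reads shared with the related Pzp and Mug genes were counted.

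**Figure D3:**
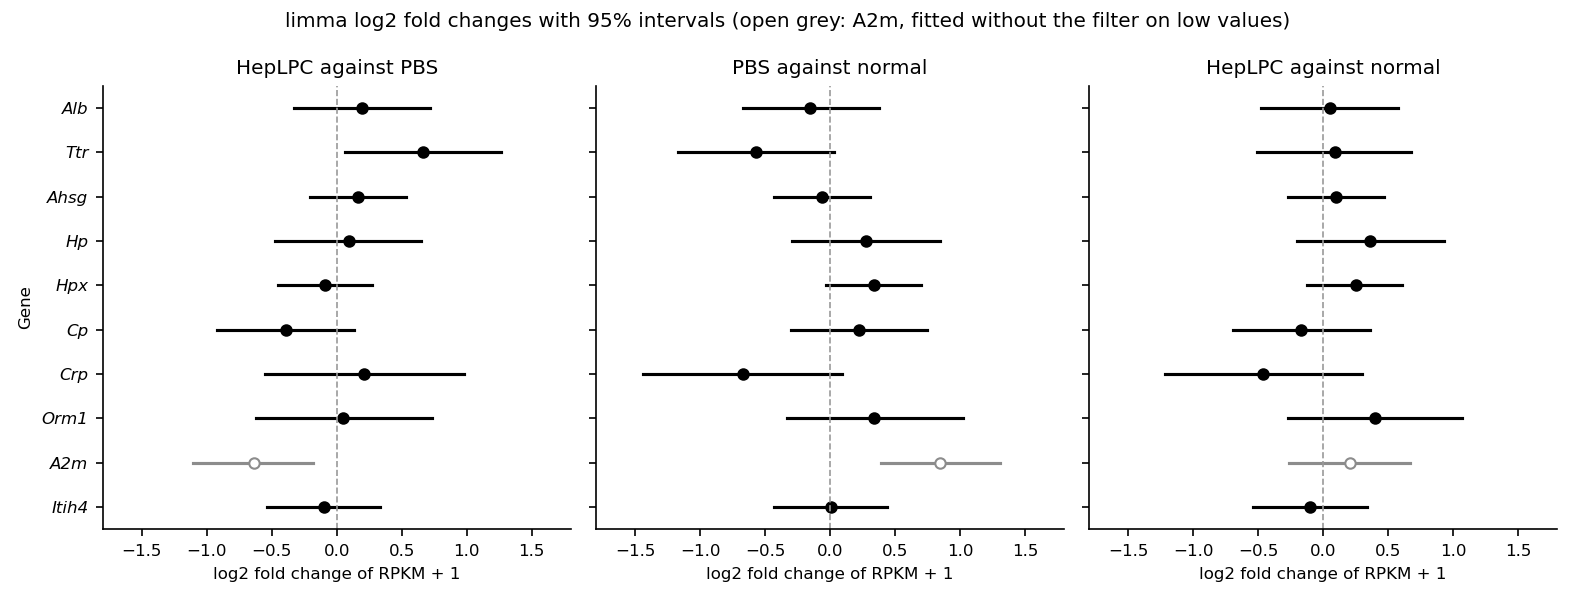
Log2 fold change on log2(RPKM + 1) (horizontal axis) of each transcript in the 3 comparisons, with limma 95% intervals, where open grey marks A2m fitted without the filter. The intervals of the 9 tested members include 0 in every panel except that of Ttr in HepLPC against PBS, which runs from 0.06 to 1.26 and does not pass after adjustment.

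The coefficient of variation of the 9 tested members had a median of 15.9% in HepLPC livers, 12.2% in PBS livers and 12.3% in normal livers, beside 21.7%, 16.9% and 11.6% for all tested genes. It was thus below that of all tested genes in HepLPC and PBS livers. The tested members are among the most abundant genes, and their spread was not set beside that of genes of like level. It reached 36.1% in HepLPC livers (Crp), 39.3% in PBS livers (Orm1) and 29.1% in normal livers (Orm1).

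Upstream of these genes, most cytokines fell below the filter. Of 12 acute phase cytokines 3 were tested and 0 called in any comparison, and 2 to 6 were listed at 0 in each library. Il6 was listed at 0 in all HepLPC and all normal libraries, and at 0.107, 0.0928 and 0 RPKM in the PBS libraries. Among 9 tested receptors, 1 rose in PBS against normal, where 10.4% of all tested genes did, and 0 passed in the other comparisons. The one that rose was Osmr, the oncostatin M receptor, at 1.77, 0.908 and 2.55 RPKM in HepLPC, 1.74, 4.85 and 5.35 RPKM in PBS and 0.459, 0.407 and 0.303 RPKM in normal livers (log2 fold change 1.75, SE 0.32, limma adjusted p = 0.00869). Osmr reached the filter of 1 RPKM in 3 libraries only with the PBS livers counted, so its calls are no independent support. Without PBS 1 and HepLPC 2, 2 receptors rose in PBS against normal, Osmr and Lifr, where 26% of all tested genes did, and Osmr fell in HepLPC against PBS, where 3.27% did. After rescaling by the median of ratios Osmr rose in PBS against normal and Il1r1 fell, where 5.09% of all tested genes rose and 1.94% fell. Il6r averaged 10.4 ± 1.98 RPKM in HepLPC, 12.3 ± 2.32 RPKM in PBS and 10 ± 2.52 RPKM in normal livers. Il6st averaged 22 ± 5.71, 30.3 ± 8.86 and 29.1 ± 2.65 RPKM in HepLPC, PBS and normal livers (SD, n = 3 each).

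Of 20 transducers and transcription factors, 3 rose in PBS against normal, where 10.4% of all tested genes did, and 1 fell in HepLPC against PBS, where 2.93% did. Stat3 had 21.5, 12.4 and 16.6 RPKM in HepLPC livers, 27.2, 26.9 and 31.0 RPKM in PBS livers and 20.3, 16.9 and 13.7 RPKM in normal livers, so that PBS livers overlapped neither other group. Its log2 fold change for PBS against normal was 0.72 (SE 0.20, limma adjusted p = 0.0492), a call lost in 15 of 20 alternatives. Relb, a subunit of NF-kappaB, rose by 0.77 in PBS against normal (SE 0.12, limma adjusted p = 0.00333) and fell by 0.71 in HepLPC against PBS (adjusted p = 0.0155). Its levels were 0.556, 0.746 and 0.776 RPKM in HepLPC, 1.64, 1.82 and 1.82 RPKM in PBS and 0.724, 0.549 and 0.572 RPKM in normal livers. Relb thus passed the filter of 1 RPKM only through the PBS livers, so its calls are no independent support. The call in HepLPC against PBS was lost in 4 of 19 alternatives. Nfkb2 rose by 0.69 in PBS against normal (limma adjusted p = 0.0104). Cebpd averaged 4.37 ± 2.03 RPKM in HepLPC, 6.16 ± 2.3 RPKM in PBS and 2.86 ± 0.684 RPKM in normal livers, with a limma adjusted p of 0.0955 for PBS against normal. The C/EBP factor Cebpb averaged 87.4 ± 68.4, 87.6 ± 27.4 and 44.4 ± 12.9 RPKM in HepLPC, PBS and normal livers (SD, n = 3 each). Without the 2 libraries that stood apart, 8 of the 20 rose in PBS against normal, where 26% of all tested genes did, the further ones being Rela, Nfkb1, Ikbkb, Irak1 and Cebpd, whereas 2 rose, Relb and Nfkb2, after rescaling by the median of ratios, where 5.09% did. The hepatocyte factor Hnf4a had a PBS against normal value of 0.20 (SE 0.17, limma adjusted p = 0.471).

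Among 14 tested feedback genes 4 rose in PBS against normal, where 10.4% of all tested genes did: the NF-kappaB inhibitors Tnfaip3 (0.67) and Nfkbie (0.63) and the phosphatases Ptpn1 (0.72) and Ptpn2 (0.44). Their limma adjusted p ran from 0.0131 to 0.0494, and after rescaling by the median of ratios 1 call was made in this list, that of Tnfaip3. Tnfaip3 was at 0.864, 0.81 and 1.35 RPKM in HepLPC, 1.98, 1.92 and 2.09 RPKM in PBS and 0.749, 0.974 and 0.928 RPKM in normal livers. It thus passed the filter of 1 RPKM in 3 libraries only through the PBS livers, so its calls are no independent support. Socs3, an inhibitor of signalling to Stat3, averaged 2.03 ± 1.48 RPKM in HepLPC, 3.16 ± 0.5 RPKM in PBS and 1.73 ± 0.302 RPKM in normal livers and was not called (PBS against normal 0.61, limma adjusted p = 0.202).

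The other positive acute phase genes included 5 that passed the test and many, the fibrinogens among them, that did not. Of 32 tested genes of this list, which includes 6 members, 5 rose and 0 fell in PBS against normal, where 10.4% of all tested genes rose and 0.944% fell, while 0 rose and 2 fell in HepLPC against PBS, where 0.135% rose and 2.93% fell. Without PBS 1 and HepLPC 2 the same 5 rose and Apcs fell in PBS against normal, where 26% of all tested genes rose and 2.45% fell. The 2 that then fell in HepLPC against PBS were Lcn2 and Timp1 in place of Lcn2 and Mt2A, where 3.27% fell. After rescaling by the median of ratios 4 rose in PBS against normal, Lcn2, Mt2A, Timp1 and Lbp, where 5.09% of all tested genes did. The median log2 fold change of this list was 0.07 in the PBS against normal comparison, where all tested genes had 0.18, and -0.08 in HepLPC against PBS, where all had -0.14. Lcn2, a siderophore-binding lipocalin, had 0.829, 1.24 and 2.96 RPKM in HepLPC livers, 13.1, 37.3 and 14.0 RPKM in PBS livers and 0.344, 0.367 and 1.28 RPKM in normal livers. Every PBS library of Lcn2 was thus above every other library, and PBS against normal was 3.64 (SE 0.42, limma adjusted p = 0.000971). Mt2A, a metallothionein that binds zinc and copper, had 69.5, 69.5 and 66.7 RPKM in HepLPC livers, 420, 321 and 387 RPKM in PBS livers and 76.3, 101 and 24.8 RPKM in normal livers. Mt2A rose by 2.67 in PBS against normal (SE 0.41, limma adjusted p = 0.00368) and fell by 2.43 in HepLPC against PBS (adjusted p = 0.0171). The other 3 that rose in PBS against normal were the protease inhibitor Timp1 (1.89), the metallothionein Mt1 (1.57) and Lbp, the lipopolysaccharide-binding protein (1.05, SE 0.24, limma adjusted p = 0.0221). The call of Mt1 was lost in 8 of 20 alternatives and that of Lbp in 5 of 20. Reads of Mt1 and Mt2A may be split between near-identical sequences.

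Lbp, which hepatocytes secrete, was at 37.2, 28.8 and 57.4 RPKM in HepLPC livers, 64.1, 78.0 and 97.2 RPKM in PBS livers and 38.1, 37.9 and 36.7 RPKM in normal livers. The fibrinogen chains, which with the members are among the most abundant of this list, were not called. Fgb averaged 2833 ± 230 RPKM in HepLPC, 2951 ± 479 RPKM in PBS and 2884 ± 176 RPKM in normal livers (SD, n = 3 each), and its PBS against normal value was 0.02 (SE 0.17, 95% interval -0.36 to 0.40, limma adjusted p = 0.947). Fga and Fgg were at 0.05 and 0.08 in the same comparison (limma adjusted p = 0.877 and 0.805). Serpina3n, a protease inhibitor whose relatives may share its reads, was at -0.23 (SE 0.23, limma adjusted p = 0.549).

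**Figure D4:**
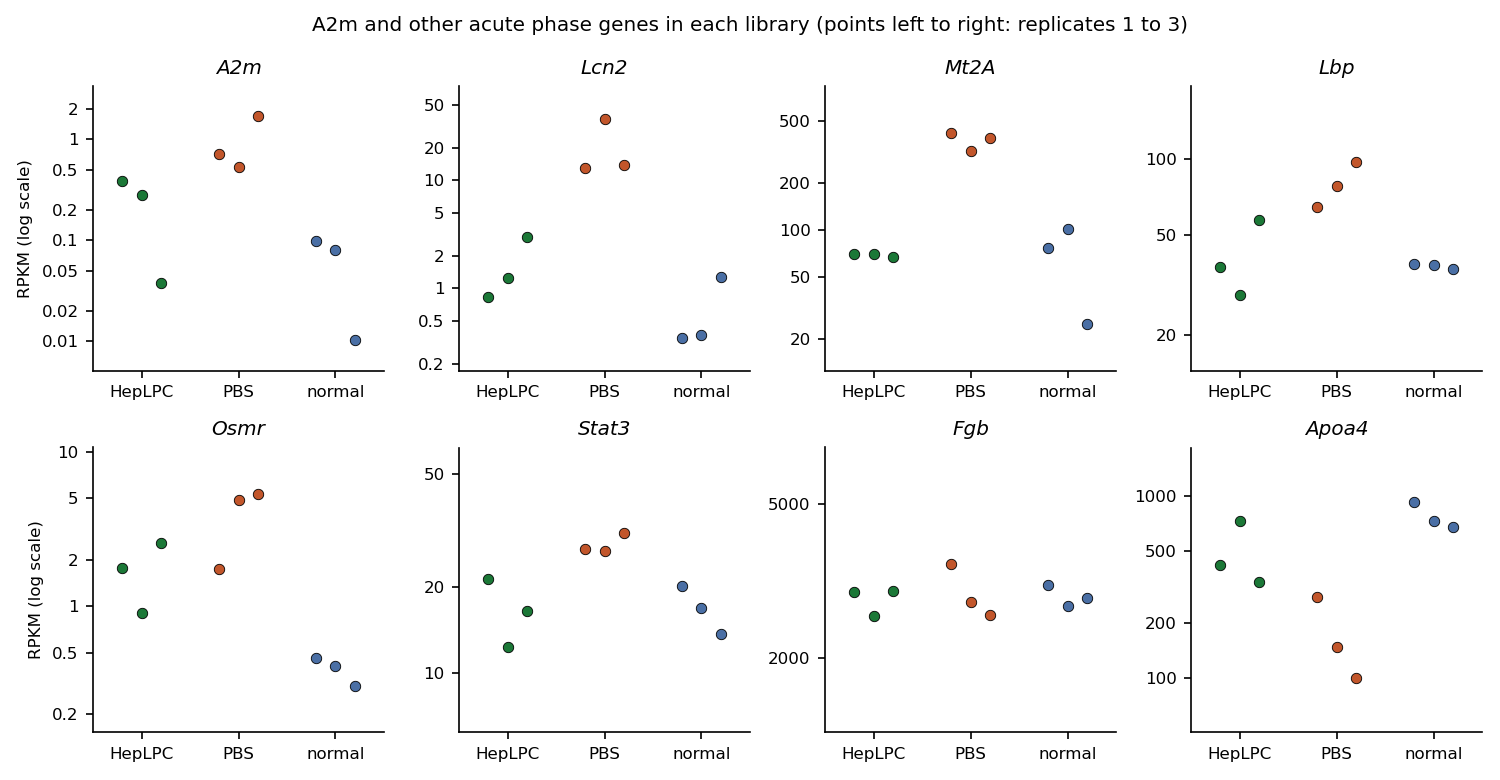
RPKM on a log axis of A2m and of 7 further acute phase genes in each HepLPC, PBS and normal library, with points in replicate order. A2m, Lcn2, Mt2A, Lbp and Stat3 are highest in the 3 PBS libraries, Apoa4 is lowest there, and the groups of Fgb overlap.

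Of 24 tested negative acute phase and constitutive plasma genes, which include Alb, Ttr and Ahsg, 1 fell in PBS against normal, where 0.944% of all tested genes did, and 0 passed in HepLPC against PBS. The one that fell was Apoa4, an apolipoprotein of the liver and gut, at 417, 726 and 337 RPKM in HepLPC livers, 280, 149 and 101 RPKM in PBS livers and 922, 733 and 680 RPKM in normal livers (log2 fold change -2.25, SE 0.38, limma adjusted p = 0.00557). Serpina6, the corticosteroid-binding globulin, averaged 267 ± 49.1 RPKM in HepLPC, 210 ± 13.1 RPKM in PBS and 382 ± 138 RPKM in normal livers (PBS against normal -0.80, limma adjusted p = 0.061). Tf, transferrin, averaged 12994 ± 373, 14842 ± 827 and 13690 ± 1785 RPKM in HepLPC, PBS and normal livers (PBS against normal 0.12, limma adjusted p = 0.706). The median log2 fold change of the list was -0.15 in PBS against normal and 0.16 in HepLPC against PBS. Without the 2 libraries that stood apart, 4 genes fell in PBS against normal (Ttr, Apoa2, Apoa4 and Apoc3), where 2.45% of all tested genes did, and 2 rose in HepLPC against PBS (Apoa4 and Apoc3), where 0.234% did. After rescaling by the median of ratios 2 fell in PBS against normal, Apoa4 and Serpina6, where 1.94% did.

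Of 16 tested genes that clear plasma proteins or handle haem, 1 rose in PBS against normal (10.4% of all tested genes did), Tfrc, the transferrin receptor (1.21, SE 0.25, limma adjusted p = 0.0162). Cd163, the macrophage receptor for haptoglobin bound to haemoglobin, averaged 5.27 ± 0.787 RPKM in HepLPC, 7.18 ± 0.929 RPKM in PBS and 5.69 ± 1.13 RPKM in normal livers (PBS against normal 0.30, limma adjusted p = 0.278). Hmox1, which degrades haem, averaged 18.6 ± 2.78, 20.4 ± 6.01 and 20.1 ± 1.71 RPKM in HepLPC, PBS and normal livers (SD, n = 3 each). Without the 2 libraries that stood apart 3 genes of this list rose in PBS against normal, Tfrc, Stab2 and Blvra, where 26% of all tested genes did. In HepLPC against normal, 0 genes of any of these 7 lists were called. Without those libraries 1, Osmr, was called higher, where 11 of 11124 tested genes were.

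Markers of other liver cells moved in the same comparisons. Of all tested genes, 10.4% rose in PBS against normal and 2.93% fell in HepLPC against PBS. After rescaling by the median of ratios, 5.09% rose and 1.94% fell in PBS against normal. All 8 tested cholangiocyte markers rose in PBS against normal and fell in HepLPC against PBS (6 of 8 after rescaling by the median of ratios, where 1.65% of all tested genes fell), and their summed level was 13.1 to 22.2 RPKM in HepLPC livers, 58.2 to 216 RPKM in PBS livers and 9.43 to 11.4 RPKM in normal livers. Of 9 tested stellate and myofibroblast markers 7 rose in PBS against normal and 2, Col1a1 and Col3a1, fell in HepLPC against PBS (1, Col1a1, after that rescaling), with sums of 61.8 to 77.8 RPKM in HepLPC, 99.2 to 158 RPKM in PBS and 33.9 to 36.6 RPKM in normal livers. Of 10 macrophage and Kupffer cell markers 2, Gpnmb and Lyz2, rose in PBS against normal and fell in HepLPC against PBS, and the sums were 192 to 273 RPKM in HepLPC, 315 to 425 RPKM in PBS and 169 to 228 RPKM in normal livers. Of 4 tested neutrophil and lymphocyte markers 2 rose in PBS against normal, S100a9 and Jchain (1, Jchain, after rescaling), with sums of 15.6 to 35 RPKM in HepLPC, 23.7 to 40.2 RPKM in PBS and 8.01 to 12 RPKM in normal livers. Elane was listed at 0 in all HepLPC and normal libraries and in PBS 1 and PBS 3, and above 0 only in PBS 2. Of 8 endothelial markers 1 rose in PBS against normal, Vwf, with sums of 75.3 to 95.2 RPKM in HepLPC, 88.8 to 108 RPKM in PBS and 77.2 to 91.4 RPKM in normal livers. Without PBS 1 and HepLPC 2, 4 endothelial markers rose in PBS against normal, Vwf, Cdh5, Pecam1 and Stab2, where 26% of all tested genes did. In that setting Vwf fell in HepLPC against PBS, where 3.27% did. Of 4 tested erythroid markers 0 passed in any comparison and 1, Slc4a1, fell in PBS against normal after rescaling, with sums of 534 to 1003 RPKM in HepLPC, 251 to 819 RPKM in PBS and 533 to 1586 RPKM in normal livers. The part of these cells in the values of A2m, Lcn2, Mt2A, Timp1, Osmr and the NF-kappaB genes was not tested.

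The genes whose pattern over the 9 libraries was most like that of a member were found by Pearson r of log2(RPKM + 1) among tested genes. For Orm1 the nearest was Kng1, kininogen, with an r of 0.948 and a Spearman rho of 0.983. For Ttr they were Smim14 (r 0.957), Gltpd2 (0.956) and the angiotensin precursor Agt (0.951). For Crp they were the bile salt pump Abcb11 (r 0.979), the anticoagulant protein S gene Pros1 (0.977) and Entpd8 (0.965). For Hpx the nearest was Pkp2 (0.955), for Cp Nrbp2 (0.960), for Hp Dmap1 (0.933), for Itih4 Hars2 (0.907), for Ahsg Gfm1 (0.872) and for Alb Slc26a8 (0.851). These describe likeness over libraries that share depth and length trends, and Kng1 averaged 1432 RPKM in HepLPC, 1859 RPKM in PBS and 1174 RPKM in normal livers.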

How the data were processed

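Each library is a table of gene symbols and RPKM, the unit named in the deposited file headers, which the authors made from RNA sequencing of whole liver (TRIzol RNA treated with DNase I and a TruSeq kit, per the labels' protocols). Per the submitters' processing notes, the tools were HISAT2 and StringTie, with no role or version given, and the build named is human, hg19. The rows carry rat symbols, so the build and annotation behind the values are uncertain, and no coordinate was taken from them. Groups and replicate numbers come from the sample titles. The members and lists were chosen with earlier results of these data known, so the lists are no independent support.

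From RPKM, whole reads were recovered for 20959 of 20959 genes above 0 in 3 or more libraries, within 0.01 read (largest deviation 0.00022), which gave the depth; the step was checked on simulated data. The test was limma 3.58.1 in R 4.3.3 (lmFit and eBayes with a trend, 2-sided) on log2(RPKM + 1), pseudocount 1, filter of 1 RPKM in 3 libraries, 6 residual degrees of freedom, Benjamini-Hochberg over 11124 genes. It was also tested on simulated data. A2m and Il6, below the filter, were fitted without it, and its combination with the other alternatives, and the list counts under 2 of them, were added after seeing the data. A fold change is a difference between group means on that scale, smaller than the true one for low genes. Alternatives were other pseudocounts, filters, scalings and weights, a replicate block, voom and left-out libraries. The genes named are the members, up to 4 called genes per list and comparison, and a set panel, of which Kng2 had no row. A1i3 and Slc40a1 of the lists had none either. Some genes of the panel and lists and a motif are not reported here. The 3 genes most like each member were found by Pearson r. The genes named for near-identical reads, those called only without PBS replicate 1 and HepLPC replicate 2 or after rescaling, and the printed promoters were chosen after values were seen. Promoters come from RefSeq (GRCr8), matched by symbol.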

Additional observations from a re-analysis of the deposited data

How the results depend on the processing

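The count of members called in PBS against normal was 0 in the main test and 1 under 3 alternatives: with no filter on low values (A2m), with library weights (Ttr) and with PBS 1 and HepLPC 2 left out (Ttr); in the other 2 comparisons it was 0 under all 20 alternatives. Sign changes were confined to uncalled values of 8 members (all but Crp and A2m), and the cause was not tested. Under the median of ratios, which moves the median of all genes to -0.01 for PBS against normal and to 0.01 for HepLPC against PBS, Hpx was 0.10 and Itih4 0.09 in HepLPC against PBS, Cp was -0.02 and Itih4 -0.24 in PBS against normal, and Alb -0.0011 in HepLPC against normal. With equal RPKM sums, Alb was -0.01 in HepLPC against normal and Orm1 -0.01 in HepLPC against PBS. With library weights, Ttr was -0.14, Cp 0.0039 and Itih4 0.05 in HepLPC against normal, and Itih4 was 0.06 in HepLPC against PBS and -0.02 in PBS against normal. With PBS 1 and HepLPC 2 left out, Ttr was -0.18, Cp 0.07 and Itih4 0.08 in HepLPC against normal, and Itih4 was 0.15 in HepLPC against PBS and -0.07 in PBS against normal. Leaving out each replicate in turn gave, in HepLPC against normal, ranges of -0.04 to 0.18 for Alb, -0.18 to 0.24 for Ttr, -0.42 to 0.07 for Cp and -0.20 to 0.08 for Itih4. In HepLPC against PBS these ranges were -0.05 to 0.30 for Hp, -0.22 to 0.35 for Orm1 and -0.21 to 0.08 for Itih4, and in PBS against normal -0.10 to 0.01 for Ahsg and -0.08 to 0.11 for Itih4.

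Over all tested genes, the 1157 called higher in PBS against normal ranged from 508 (stricter filter) to 3416 (library weights) and the 105 called lower from 36 to 411; the 326 called lower in HepLPC against PBS ranged from 82 to 734 and the 15 called higher from 0 to 76. In HepLPC against normal the 5 higher and 4 lower ranged from 0 to 40 and from 0 to 11. Correlations between the deviations of same-numbered libraries ran from -0.412 to 0.31, and those of differently numbered ones from -0.472 to 0.608 (HepLPC 2 with PBS 1). Deviations from a mean of 3 libraries depend on each other, so these cannot tell whether the numbers mark a shared batch or pairing. With a replicate block, 723 higher and 64 lower were called in PBS against normal, 4 and 194 in HepLPC against PBS, and 0 members in each comparison. Rescaled by the median of ratios, 566 higher and 216 lower were called in PBS against normal, 21 and 183 in HepLPC against PBS. Rescaled mean RPKM moved past 1 SD only for Alb (46738), Ahsg (4551) and Hpx (4237) in PBS livers under the median of ratios. Called values of the other named genes stayed called in 277 of their settings and were lost, in the same direction, in 75. Depth limits the precision of A2m in normal livers, with 1 to 9 reads in each library, while its PBS libraries differed by more than counting error (129 to 178 reads in PBS 3, 44 to 75 in PBS 1, exact Poisson 95% intervals).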
